A study of Homo sapiens with 16 samples.

Results

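HNF4A, KLF5 and MYC were compared with one another in mitotic chromatin, using the 3 peak lists that chromatin immunoprecipitation and sequencing (ChIP-seq) gave for these factors in M phase. The lists were chosen by the sample titles and hold 6505 of the 146596 peaks in the 12 lists of the series: 2413 peaks of HNF4A, 2118 of KLF5 and 1974 of MYC. All came from LoVo, an established human colon adenocarcinoma line, grown with 10% serum. The cells were held for 12 h in 2 mM thymidine, a single block, and then for 8 h in 200 ng/ml nocodazole, which prevents the spindle from forming and stops cells in M phase. Chromatin was fixed with 1% formaldehyde and sheared to 200 to 400 bp, and each library used 5 µg of antibody: rabbit antibodies from Santa Cruz for HNF4A and KLF5 and a Millipore antibody for MYC. One rabbit IgG library of the same cells was the control of all 3 factors. RAD21, CTCF and histone H3 lists of the same M-phase cells, and the lists of the same factors in cells held in early S phase by a double thymidine block, served as other readouts. The blocks of the S-phase cells were of 12 h in 2 mM thymidine, with a release of 8 h. The design text of the series names siRNA treatments, but no label of these samples carries one. How pure the arrested cells were is not stated in the sources used here.

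HNF4A is a nuclear receptor that binds direct repeats as a dimer and keeps intestinal, liver and pancreatic epithelium differentiated. KLF5 is a zinc-finger factor that binds GC-rich sites and is high in the dividing cells of intestinal crypts, and MYC pairs with MAX to bind E-boxes, mostly near promoters, and drives growth. During mitosis chromosomes condense, transcription largely stops and many factors leave the chromatin, while some stay at a part of their sites, which is called mitotic bookmarking.

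Each factor had 1 library, so no difference between factors can be set against a spread between replicates, and no test across samples exists. Intervals are 95% intervals over peaks (exact Clopper-Pearson for shares, Newcombe for differences of shares) and cover counting error only. Those of differences between factors treat the lists as independent, although a shared site enters more than 1 list. The libraries held 16813394 tags for HNF4A, 7362169 for KLF5 and 15344922 for MYC after repeated tags had been removed, against 6875106 in the IgG control. HNF4A and MYC were thus 2.45 and 2.23 times as deep as the control and KLF5 1.07 times. The rate of redundant tags in the file headers was highest for KLF5, at 0.44, against 0.19 for HNF4A and 0.28 for MYC. The labels give no number of peaks for KLF5 and assign 2118, the length of the KLF5 list, to the IgG sample; whether these 2 libraries were exchanged cannot be told from the files, and an exchange would touch every value below. The authors' false discovery rate (FDR), obtained by exchanging ChIP and control, was 100% for 1902 HNF4A and 1526 MYC peaks and for 0 KLF5 peaks. It was under 5% for 0 HNF4A, 396 KLF5 and 86 MYC peaks. Absence of a peak from a list does not show absence of binding.

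In M phase the 3 factors were mostly listed at different places. A peak was called shared if it overlapped a peak of another factor by at least 1 bp, and private if it did not. Of the HNF4A peaks, 237 were shared, 9.82% of the list (8.66 to 11.1%). KLF5 had 286 shared peaks, 13.5% (12.1 to 15.03%), and MYC had 244, 12.4% (10.9 to 13.9%). HNF4A had the lowest share, with a difference of -3.68 percentage points from KLF5 (-5.57 to -1.81) and of -2.54 points from MYC (-4.43 to -0.676). For KLF5 minus MYC the interval covered 0, with a difference of 1.14 points (-0.921 to 3.20). When summits had to lie within 100 bp, the shares were 4.43% for HNF4A, 5.57% for KLF5 and 4.20% for MYC. HNF4A was then no longer below MYC. The HNF4A list was also the longest, which lowers its share for the same number of overlaps. Among the 1000 peaks of highest score in each list, HNF4A shared 8.9% (7.21 to 10.8%) and MYC 9.7% (7.94 to 11.7%).

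By overlaps of at least 1 bp, HNF4A and MYC were the rarest pair, and the pairs with KLF5 were close to each other in number. HNF4A met KLF5 at 153 of its peaks, 6.34% of the list, and MYC at 113, or 4.68%. Seen from KLF5, 154 peaks met HNF4A (7.27%, 6.20 to 8.46%) and 163 met MYC (7.70%, 6.60 to 8.91%). In the MYC list, 112 peaks met HNF4A (5.67%) and 162 met KLF5 (8.21%). A MYC peak was less frequent at HNF4A peaks than at KLF5 peaks, with a difference of -3.01 points (-4.45 to -1.61). For the presence of HNF4A, KLF5 exceeded MYC by 1.60 points (0.0834 to 3.11). The order of the pairs depended on the rule. Summits lay within 100 bp in 75 overlapping pairs of HNF4A and KLF5, 40 of HNF4A and MYC and 49 of KLF5 and MYC. With a score of at least 100 for both peaks, the counts were 19, 14 and 9, and KLF5 and MYC were the rarest pair.

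When overlapping peaks were merged, the 3 lists gave 6104 sites, of which 366, or 6.00%, held 2 or 3 factors. HNF4A and KLF5 without MYC occupied 122 sites, HNF4A and MYC without KLF5 82, and KLF5 and MYC without HNF4A 131. All 3 factors met at 31 sites, 0.508% of the total. HNF4A was alone at 2176 sites, KLF5 at 1832 and MYC at 1730. Only 3 sites held more than 1 peak of the same factor.

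**Figure D1:**
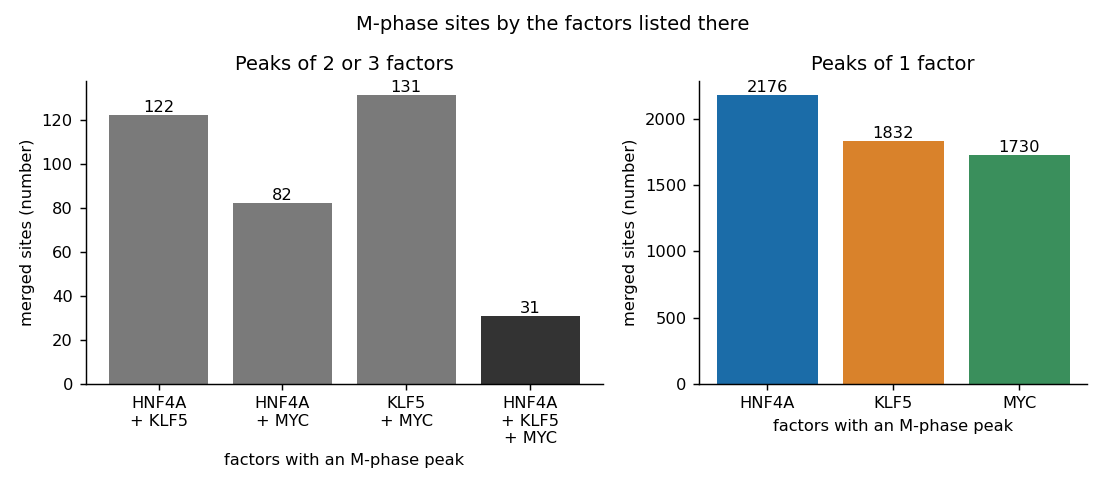
Number of merged M-phase sites (vertical axes, bars from 0, scales differ between the panels) by the factors with a peak there (horizontal axes). The sites of exactly 2 factors, 82 to 131 for each pair, and the 31 of all 3 are on the left, and the sites of 1 factor, 1730 to 2176 for each, are on the right.

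Peaks that missed one another seldom had the other factor close by. The median distance from such HNF4A peaks to the nearest KLF5 summit was 377 kb, and 0.09% had one within 1000 bp. Of the 2260 HNF4A peaks that met no KLF5 peak, 4.16% had a KLF5 summit within 10 kb and 22.1% within 100 kb. Of the 2300 HNF4A peaks that met no MYC peak, 3.09% had a MYC summit within 10 kb and 20.6% within 100 kb. Of the 1955 KLF5 peaks that met no MYC peak, 3.48% and 20.5% had a MYC summit within these distances, and 0 had one within 1000 bp. The shares that scattered peaks would give were not computed. Allowing a gap of up to 500 bp between peaks moved the shared share of HNF4A to 10.5%, the highest of its alternatives, and demanding that each peak cover 50% of the other moved it to 7.50%.

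Where the factors did overlap, HNF4A and KLF5 lay closest to each other. A summit is the position with the most overlapping tags, and the sheared fragments limit how finely it can be placed. The median distance between summits was 109 bp for the 155 overlapping pairs of HNF4A and KLF5 peaks (quartiles 42.5 and 274.5 bp). It was 196 bp for the 113 pairs of HNF4A and MYC (64 and 439 bp) and 175 bp for the 163 pairs of KLF5 and MYC (82.5 and 391.5 bp). Among the HNF4A and KLF5 pairs, 48.4% had summits within 100 bp of each other (40.3 to 56.5%). The share was 35.4% in HNF4A and MYC pairs (26.6 to 44.95%) and 30.1% in KLF5 and MYC pairs (23.1 to 37.7%). The HNF4A and KLF5 share was 13.0 points above that of HNF4A and MYC (0.998 to 24.3) and 18.3 points above that of KLF5 and MYC (7.60 to 28.5). The pairs with MYC differed from each other by 5.34 points, with an interval that covered 0 (-5.73 to 16.6). At a score of at least 100, the HNF4A and MYC median was 450.5 bp over the 14 pairs left.

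MYC peaks were the widest, and wide peaks can overlap with distant summits. HNF4A peaks had a median width of 725 bp, KLF5 peaks 690.5 bp and MYC peaks 1070.5 bp, and the fragment size in the file headers ran from 176 bp for HNF4A and 224 bp for KLF5 to 262 bp for MYC. In the overlapping pairs, HNF4A was the wider peak in 69 of 155 pairs with KLF5 but in 16 of 113 with MYC, and KLF5 was wider than MYC in 24 of 163. With summits in the middle of their peaks, an overlap would permit distances up to the mean of the 2 widths. That mean had a median of 842 bp for HNF4A and KLF5, 988.5 bp for HNF4A and MYC and 1048 bp for KLF5 and MYC. As a part of that mean, the median distance was 0.136 for HNF4A and KLF5, 0.226 for HNF4A and MYC and 0.163 for KLF5 and MYC. The pair of HNF4A and KLF5 thus remained the closest on this scale, while KLF5 and MYC came nearer to it than HNF4A and MYC did. The part of width and fragment size in these distances was not tested.

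In most pairs each summit lay inside the partner's peak. This held for 129 of the 155 HNF4A and KLF5 pairs (83.2%), for 86 of the 113 HNF4A and MYC pairs (76.1%) and for 132 of the 163 KLF5 and MYC pairs (81.0%). Summits lay within 500 bp of each other in 92.3% of HNF4A and KLF5 pairs, 78.8% of HNF4A and MYC pairs and 84.0% of KLF5 and MYC pairs.

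**Figure D2:**
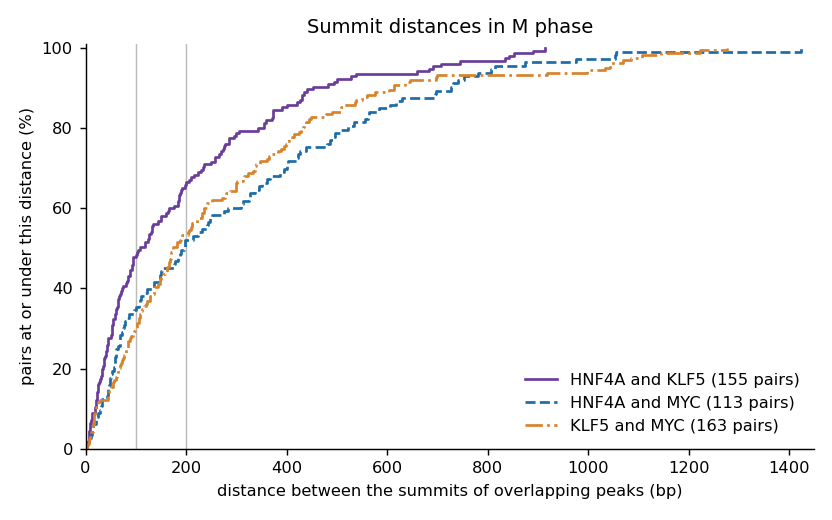
Cumulative share of overlapping peak pairs (vertical axis, %) by the distance between their summits (horizontal axis, bp), 1 line for each pair of factors, with grey lines at 100 and 200 bp. The line of HNF4A and KLF5 lies above the lines of both pairs with MYC from 50 bp on, with 66.5% of its pairs within 200 bp, against 52.2% for HNF4A and MYC and 53.4% for KLF5 and MYC.

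Shared peaks were wider than private peaks in all 3 lists. The median width was 825 bp for shared and 712 bp for private HNF4A peaks, 850.5 and 677 bp for KLF5, and 1185 and 1055 bp for MYC. Among shared HNF4A peaks, 65.8% were wider than the median of their whole list (59.4 to 71.8%). The same held for 75.2% of shared KLF5 peaks (69.7 to 80.1%) and 64.3% of shared MYC peaks (57.98 to 70.4%). A wide peak can meet another more readily, and the part of width in the sharing was not tested. Set against peaks of similar tag count, in 4 groups of each list, the wider ones made up 58.6% in HNF4A (52.1 to 65.0%), 55.6% in KLF5 (49.6 to 61.4%) and 56.1% in MYC (49.7 to 62.5%). The intervals of KLF5 and MYC covered 50%.

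Shared peaks also held more tags, most clearly for KLF5. The median was 28 tags in shared and 22 in private HNF4A peaks, 15 and 11 in KLF5 peaks, and 30 and 24 in MYC peaks. As a percentile of the own list, the medians were 65.8 and 48.3 for HNF4A, 76.7 and 46.7 for KLF5, and 63.1 and 48.3 for MYC. Percentiles rank listed peaks only, so they still depend on the threshold of each list. The part of library depth in the contrast between factors was not tested. Each list was divided into 10 groups by tag count. The KLF5 group with the most tags (21 to 109) was shared in 38.1% of its 210 peaks (31.5 to 45.03%), and the 411 peaks of 9 tags, the fewest listed, in 4.38% (2.62 to 6.83%). HNF4A showed 18.3% (13.6 to 23.8%) at 45 to 282 tags and 4.62% (2.55 to 7.63%) at 12 and 13 tags. MYC had the flattest course, 18.6% (13.3 to 24.8%) at 50 to 245 tags and 7.11% (4.12 to 11.3%) at 14 to 16 tags. Ranked by fold enrichment in place of tags, 58.7% of shared KLF5 peaks stood above the median of their list (52.8 to 64.5%). HNF4A then had 55.7% (49.1 to 62.1%) and MYC 49.2% (42.7 to 55.6%), with intervals that covered 50%.

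The strongest sites were nevertheless private in their majority. Of the 10 peaks with the most tags, 2 were shared for HNF4A, 3 for KLF5 and 3 for MYC. Among the 100 with the most tags the counts were 20 for HNF4A, 38 for KLF5 and 21 for MYC. Under the FDR of 5%, 31.3% of the 396 KLF5 peaks were shared (26.8 to 36.1%), against 9.41% of the 1722 KLF5 peaks at or above it (8.07 to 10.9%). MYC had 15.1% of 86 peaks (8.30 to 24.5%) and 12.2% of 1888 peaks (10.8 to 13.8%) in the same classes.

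**Figure D3:**
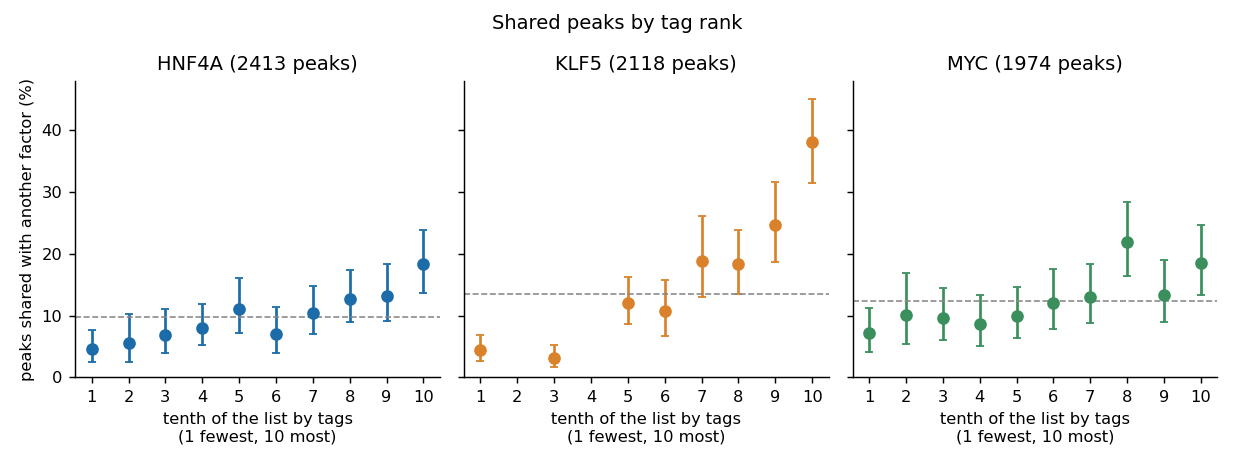
Share of peaks that overlap a peak of another factor (vertical axis, %, with exact 95% intervals over peaks) in each of 10 groups of a list by tag count (horizontal axis, fewest to most), with a dashed line at the share of the whole list. Between the groups of fewest and most tags, the share goes from 4.62% to 18.3% in HNF4A, from 4.38% to 38.1% in KLF5 and from 7.11% to 18.6% in MYC. Peaks of equal count stay in 1 group, which leaves 2 of the KLF5 groups empty.

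The relation between the ranks of partners at shared sites depended on the measure of strength. Spearman's rho between the tags of the partners was 0.35 for HNF4A and KLF5 (155 pairs), 0.36 for HNF4A and MYC (113 pairs) and 0.30 for KLF5 and MYC (163 pairs). These are descriptions, since partners share the IgG control and the locus. By the authors' score, which weighs tags against the local background, rho was 0.07, -0.06 and -0.01 for the same pairs. By fold enrichment it was 0.30, -0.02 and 0.11, and by tags for each 1000 bp of width 0.22, 0.21 and 0.19. Both partners were among the top 10% of their lists by tags in 18 HNF4A and KLF5 pairs, 6 HNF4A and MYC pairs and 12 KLF5 and MYC pairs.

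RAD21, a subunit of the cohesin ring that holds chromatids and loops together, was listed more often at shared than at private sites of every factor. An M-phase RAD21 peak overlapped 35.4% of shared HNF4A peaks (29.4 to 41.9%) and 14.7% of private ones (13.2 to 16.3%), a difference of 20.7 points (14.7 to 27.2). For KLF5 the shares were 34.6% and 12.4%, a difference of 22.2 points (16.7 to 28.0). For MYC they were 36.9% and 17.1%, a difference of 19.8 points (13.7 to 26.2). The shared peaks of the 3 lists lie at the same 366 merged sites, so these shares are not independent of one another. Within 4 groups of similar tag count the differences were 18.2 points for HNF4A and 15.9 points for KLF5. At a score of at least 100, KLF5 gave 9.97 points with an interval that covered 0 (-7.53 to 29.9), and MYC 37.2 points (16.4 to 55.2). When the summits of factor and RAD21 had to lie within 100 bp, the HNF4A difference was 2.12 points and its interval covered 0 (-0.712 to 6.22). KLF5 then gave 8.19 points (4.91 to 12.4) and MYC 6.55 points (3.19 to 11.1). RAD21 was called against the same IgG library as the factors, and the part of that control in the difference was not tested.

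The surplus was mainly cohesin without CTCF, a zinc-finger protein that halts cohesin and anchors chromatin loops. RAD21 without a CTCF peak was found at 27.4% of shared and 10.2% of private HNF4A peaks, a difference of 17.3 points (11.8 to 23.4). It was found at 24.1% and 6.28% of KLF5 peaks, a difference of 17.8 points (13.1 to 23.2), and at 21.7% and 7.11% of MYC peaks. RAD21 together with CTCF differed by 3.47 points in HNF4A (0.484 to 7.71), 4.32 in KLF5 (1.05 to 8.53) and 5.16 in MYC (0.930 to 10.4).

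Private MYC peaks met CTCF more often than private peaks of both other factors. An M-phase CTCF peak was present at 12.2% of shared and 6.25% of private HNF4A peaks, and at 18.5% and 8.68% of KLF5 peaks. MYC had 25% and 21.6%, a difference of 3.38 points whose interval covered 0 (-2.02 to 9.47). Private HNF4A peaks differed from private MYC peaks by -15.4 points (-17.6 to -13.2), and private KLF5 peaks by -12.9 points (-15.3 to -10.6). Among shared peaks HNF4A differed from MYC by -12.8 points (-19.6 to -5.83), and KLF5 from MYC by -6.47 points, with an interval that covered 0 (-13.6 to 0.551). MYC peaks were also the widest. In windows of 200 bp at every summit, CTCF was present at 5.42% of private HNF4A, 6.88% of private KLF5 and 17.2% of private MYC peaks. The CTCF library was called against goat IgG, a control the factors did not share.

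The pairings followed the same order. Sites of HNF4A and KLF5 held CTCF in 8.20% of cases (4.001 to 14.6%), those of HNF4A and MYC in 19.5% (11.6 to 29.7%) and those of KLF5 and MYC in 31.3% (23.5 to 39.98%). Neighbouring intervals overlapped, while those of the first and the last pair did not. The median widths of these sites were 998.5, 1284.5 and 1327 bp in the same order, and the part of width was not tested. RAD21 was listed at 33.6%, 37.8% and 34.4% of these sites in the same order, with intervals that overlapped throughout. At the 31 sites of all 3 factors, 14 held RAD21 (45.2%, 27.3 to 63.97%) and 5 held CTCF (16.1%, 5.45 to 33.7%).

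RAD21 summits were offset from those of the factors, over all peaks least for HNF4A. Where peaks overlapped, the RAD21 summit had a median distance of 163 bp from HNF4A summits, 214.5 bp from KLF5 summits and 274 bp from MYC summits. Among HNF4A peaks the shared ones were farther from RAD21, with a median of 229 bp for 84 shared and 148 bp for 320 private peaks. The medians for KLF5 were 224 bp for shared and 211 bp for private peaks, and those for MYC 286 and 272 bp. Summits lay within 100 bp of each other in 20.2% of these shared HNF4A peaks (12.3 to 30.4%) and in 34.4% of the private ones (29.2 to 39.9%). KLF5 and MYC went the other way. At RAD21, KLF5 had 32% of shared (23.02 to 42.1%) and 23.9% of private peaks (18.6 to 30.0%). MYC had 26.9% (18.2 to 37.1%) and 21.5% (17.0 to 26.7%). In all 3 factors the intervals of the classes overlapped. The part of peak width in these distances was not tested. The distances to CTCF summits were 218 bp for HNF4A, 297 bp for KLF5 and 307.5 bp for MYC.

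The list of the chromatin control was short, with 542 H3 peaks over 399 kb, of which 541 had an FDR of 100%, so that few overlaps were possible. An H3 peak of M phase overlapped 4 HNF4A, 7 KLF5 and 7 MYC peaks. Among the shared peaks these were 0 of 237 HNF4A (upper limit 1.54%), 1 of 286 KLF5 and 1 of 244 MYC peaks.

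**Figure D4:**
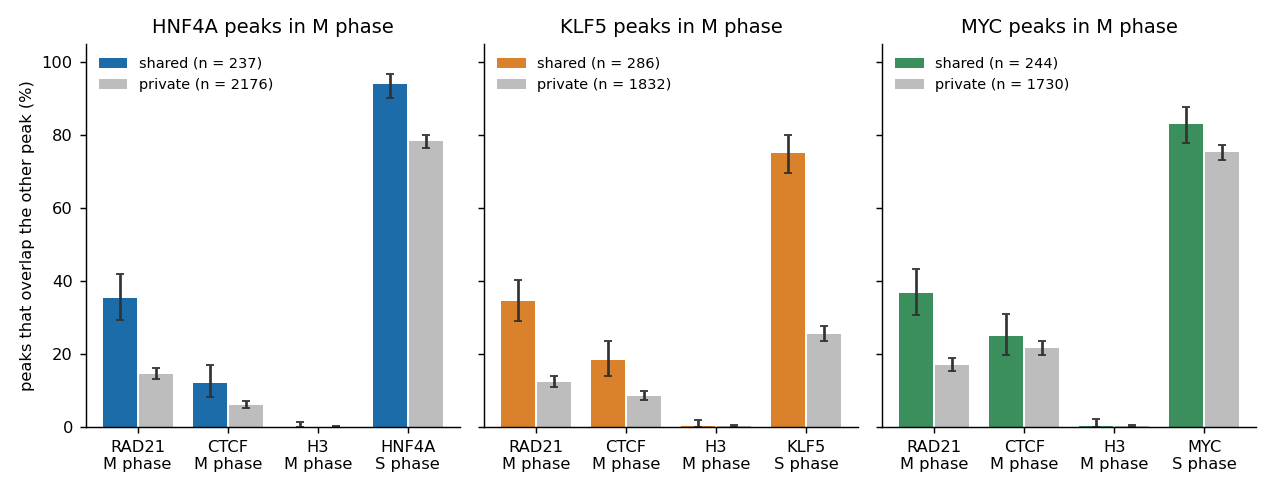
Share of M-phase peaks that overlap a peak of another list (vertical axis, %, bars from 0 with exact 95% intervals over peaks), for shared peaks in colour and private peaks in grey, in a panel for each factor. RAD21 stands at 34.6 to 36.9% of shared and 12.4 to 17.1% of private peaks, and the own S-phase list separates the classes most for KLF5, with 75.2% and 25.7%.

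Nearly every shared M-phase site also had a factor peak in the S-phase lists, and KLF5 differed most between its classes. The S-phase HNF4A list covered 94.1% of shared and 78.3% of private HNF4A peaks, a difference of 15.8 points (11.7 to 18.7). For KLF5 and its own S-phase list the shares were 75.2% and 25.7%, a difference of 49.5 points (43.8 to 54.6), and for MYC 83.2% and 75.4%, a difference of 7.82 points. The S-phase lists were of unlike length, with 15437 HNF4A, 5928 KLF5 and 11941 MYC peaks. The part of that length in the contrast between factors was not tested. Within 4 groups of similar tag count the differences were 8.43 points for HNF4A, 28.1 for KLF5 and 1.64 for MYC. With 50% of each peak covered, KLF5 gave 26.7 points (20.9 to 32.6). HNF4A gave 3.15 points (-3.41 to 9.84) and MYC 5.31 points (-1.33 to 11.6), and both intervals covered 0. An S-phase peak of at least 1 of the 3 factors was present at 97.5% of shared HNF4A, 96.5% of shared KLF5 and 95.9% of shared MYC peaks.

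The private KLF5 peaks fell into unlike classes. Of the 1832, 1229 (67.1%, 64.9 to 69.2%) met no S-phase peak of any of the 3 factors, against 21.2% of private HNF4A and 22.6% of private MYC peaks. These 1229 peaks had a median of 10 tags over 639 bp, an FDR under 5% in 4.48% of cases, and RAD21 in 5.04%. The other 603 private KLF5 peaks had a median of 15 tags over 809 bp, an FDR under 5% in 36.0% and RAD21 in 27.5%. The low tag counts move with the class, and their part in it was not tested.

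Factors could meet in M phase at sites where the list of one of them had no S-phase peak. Of the 122 sites of HNF4A and KLF5, 118 had an S-phase HNF4A peak and 83 an S-phase KLF5 peak. Of the 131 sites of KLF5 and MYC, 102 had an S-phase KLF5 peak and 116 an S-phase MYC peak, and 86 had an S-phase HNF4A peak although HNF4A was not listed there in M phase.

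The 31 sites of all 3 factors ranked near the middle of the HNF4A and MYC lists and higher in the KLF5 list. HNF4A held 13 to 85 tags there with a median of 26, KLF5 9 to 72 with a median of 16, and MYC 16 to 118 with a median of 28. As percentiles of their lists the medians were 60.1 for HNF4A, 79.9 for KLF5 and 58.6 for MYC. At 12 of the sites all 3 factors were above the median of their lists. Of the peaks that met both other factors, 20 of 29 HNF4A and 25 of 30 MYC peaks had an FDR of 100%. The FDR was under 5% for 18 of 31 such KLF5 peaks, 2 MYC peaks and 0 HNF4A peaks. The 3 summits spanned 21 to 1424 bp with a median of 214 bp, within 100 bp at 6 sites and over 500 bp at 8. In S phase, HNF4A had a peak at all 31, KLF5 at 28 and MYC at 24.

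Scaled to 1000000 library tags, KLF5 had the highest value at 20 of the 31 sites, HNF4A at 6 and MYC at 5. This scale depends on depth, width and the threshold of each list. The lowest value of any listed HNF4A peak was 0.714, that of KLF5 1.22 and that of MYC 0.912, so the lists did not start at the same level.

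**Figure D5:**
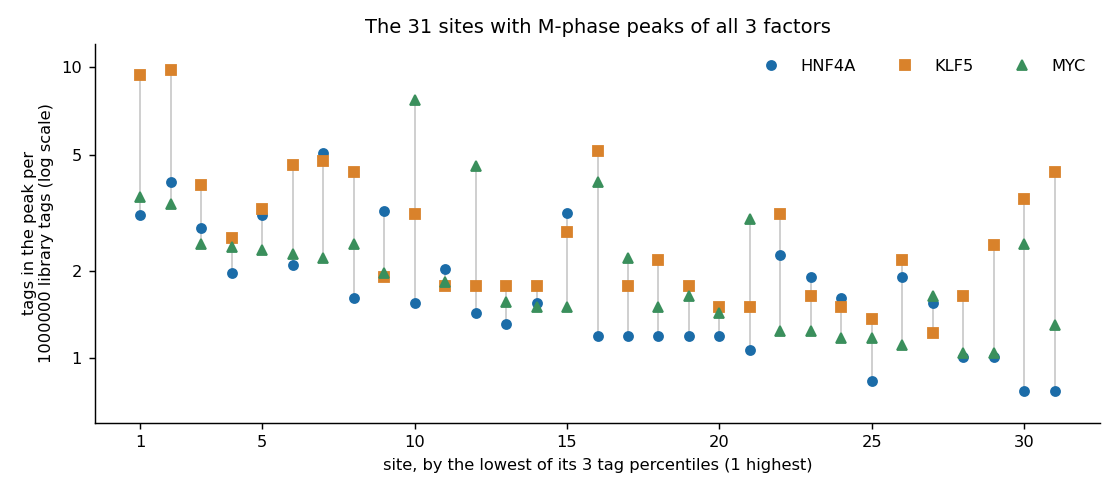
Tags in the M-phase peak for each 1000000 filtered library tags (vertical axis, log scale) at each of the 31 sites of all 3 factors (horizontal axis, ordered by the lowest of the 3 tag percentiles), 1 symbol for each factor and a grey line over their range. KLF5 reaches 9.37 and 9.78 at the 2 leading sites and is the highest symbol at 20 sites, and the order of the factors changes from site to site.

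Single sites show how different the makeup was. Positions are in the human build hg18, and fold enrichment is the authors' value over local background. Tags are as deposited, not scaled to depth or to the copy number of a chromosome. Sites were taken on chromosomes 1 to 22 and X. Of the sites of all 3 factors, the one whose lowest tag percentile was highest, at 92.8, lay on chromosome 7 from 5424221 to 5425943. It held 52 HNF4A, 69 KLF5 and 55 MYC tags with all summits within 85 bp, and neither RAD21 nor CTCF was listed there. The FDR of the HNF4A and MYC peaks was 100% and that of the KLF5 peak 0.00%. On chromosome 12 from 51604745 to 51607947 there were 68 HNF4A, 72 KLF5 and 52 MYC tags, but the summits spread over 1424 bp, and the enrichment was 3.19-fold for HNF4A, 8.34-fold for KLF5 and 3.92-fold for MYC. A CTCF peak was present at this site. It had the widest span of summits of the 31, and its HNF4A enrichment was the lowest of that list.

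The next leading sites differed in cohesin. On chromosome 1 from 200253556 to 200255138, HNF4A had 47 tags, KLF5 29 and MYC 38 at a RAD21 peak. The KLF5 and MYC summits, at 200254622 and 200254576, were close together, and the HNF4A summit at 200253769 made up the span of 853 bp. On chromosome 15 from 49702450 to 49703703 the arrangement was another, with HNF4A (33 tags) and KLF5 (19 tags) summits at 49703294 and 49703300 and the MYC summit (37 tags) at 49702855. Neither RAD21 nor CTCF was listed there. Chromosome 12 from 54610723 to 54612100 held 52 HNF4A, 24 KLF5 and 36 MYC tags within 175 bp, together with both RAD21 and CTCF.

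The site on chromosome 19 from 1201871 to 1204668 had nearly equal counts, 35 HNF4A, 34 KLF5 and 35 MYC tags, over a span of 949 bp. The most HNF4A tags, 85 at 16.73-fold, were on chromosome 15 from 75146089 to 75148178, beside 35 KLF5 tags at 18.76-fold and 34 MYC tags at 5.13-fold, all within 79 bp and at a RAD21 peak. KLF5 led on chromosome 10 from 114842991 to 114844483, where 32 tags gave 30.03-fold enrichment, beside 27 HNF4A tags at 11.95-fold and 38 MYC tags at 10.26-fold.

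Sites of exactly 2 factors reached higher counts for one of them. On chromosomes 1 to 22 and X, the leading HNF4A and KLF5 sites were on chromosome 12 from 52658281 to 52659837, with 79 HNF4A and 41 KLF5 tags, and on chromosome 7 from 5434815 to 5436833, with 104 HNF4A and 35 KLF5 tags and a CTCF peak. A pair on a contig outside these chromosomes ranked above both, with 282 HNF4A and 109 KLF5 tags, the most of either list, and summits 37 bp apart. For HNF4A and MYC, chromosome 12 from 44669438 to 44672579 held 79 HNF4A and 83 MYC tags, with summits 1054 bp apart. The next, on chromosome 2 from 90972708 to 90976077, held 154 HNF4A and 65 MYC tags over peaks of 3217 and 2340 bp, with no RAD21, CTCF or H3 peak and no S-phase peak of any of the 3 factors. The FDR of its HNF4A peak was 79.03% and that of its MYC peak 100%. Whether reads map uniquely there or on the contig named above was not examined. For KLF5 and MYC, chromosome 12 from 6940349 to 6943495 held 40 KLF5 and 97 MYC tags at RAD21 and CTCF, and chromosome 15 from 64582705 to 64585108 held 32 KLF5 and 118 MYC tags with neither.

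For HNF4A and MYC the highest enrichment belonged to private peaks, with 38.43-fold for HNF4A and 30.11-fold for MYC, where shared peaks reached 34.02-fold and 19.16-fold. The sites named here had no peak of another factor within 1000 bp. HNF4A was led by chromosome 5 from 59087615 to 59088533, where 79 tags lay without cohesin. The next peak, at 30.67-fold, held 54 tags on chromosome 10 from 129560837 to 129561841 with RAD21 and CTCF. At neither was KLF5 or MYC listed in S phase. KLF5 was led by chromosome 17 from 40560126 to 40561327 at 36.70-fold with 54 tags. Chromosome 12 from 368205 to 369390 followed at 30.22-fold with 46 tags. The highest KLF5 enrichment of the whole list, 68.37-fold, belonged to a peak shared with HNF4A. MYC was led by chromosome 2 from 202838296 to 202839678 with 69 tags. Chromosome 15 from 48434111 to 48435705 followed at 27.98-fold with 124 tags. Both MYC sites had S-phase peaks of HNF4A, KLF5 and MYC, and MYC alone was listed in M phase.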

How the data were processed

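Per the submitters' processing notes, reads were handled with CASAVA 1.4, BWA and MACS 1.4 on build hg18. Per the file headers, MACS 1.4.0rc2 called each list on its own against 1 IgG library, required a p-value of 1e-05 or less, and kept 1 tag at a position. The deposited tags per peak are raw counts. The score that the authors deposited equals -10 log10 of the p-value. The deposited fold enrichment is a ratio over the local background, and the deposited FDR is a percent. All listed peaks were used, although the labels speak of an FDR under 5%.

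Overlaps, summit distances, tag percentiles and merged sites were computed with scipy 1.17.1, pandas 2.3.3 and numpy 2.4.6 under Python 3.11.15, and the overlap step was tested on simulated lists. Figures used matplotlib 3.10.9. Alternatives covered the overlap rule, thresholds, equal list lengths, widths, 4 groups by tag count and H3 peaks. No p-value was computed. The factors, comparisons and lists were chosen with earlier results of these data known. Named sites follow ranks: sites of all 3 factors by the lowest of their tag percentiles, pair sites by the lower percentile, and private peaks by fold enrichment, each from the top and on chromosomes 1 to 22 and X. No hg18 genome or annotation was used here, so motifs were not searched and no site was assigned to a gene.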

Additional observations from a re-analysis of the deposited data

How the results depend on the processing

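Of 136 alternative values for 27 results, 85 stayed within the counting interval of the result, 46 moved beyond it and 5 changed sign. The shared share of HNF4A, KLF5 and MYC was 7.50%, 10.5% and 8.61% with 50% of each peak covered, 4.43%, 5.57% and 4.20% with summits within 100 bp, and 6.05%, 8.26% and 6.64% with 200 bp windows. At a score of at least 100 it was 4.69%, 16.9% and 4.88%. With an FDR under 5% the HNF4A list was empty, and KLF5 and MYC shared 1.26% and 5.81%. Among the 1000 strongest peaks of each list, HNF4A shared 8.9%, KLF5 13.1% and MYC 9.7%. Without the KLF5 list, HNF4A shared 4.68% and MYC 5.67%. Some of these alternatives compared fewer or shorter regions, and the cause of the shifts was not tested.

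The median summit distance of HNF4A and MYC was 450.5 bp at a score of at least 100. Shared HNF4A peaks were wider than their list's median in 58.2% with 200 bp windows; against peaks of similar tag count the shares were 58.6% for HNF4A, 55.6% for KLF5 and 56.1% for MYC. Above the list's median stood 55.7%, 58.7% and 49.2% of shared HNF4A, KLF5 and MYC peaks when ranked by fold enrichment, 63.6% of KLF5 and 55.7% of MYC peaks by tags per 1000 bp, and 56.8% of HNF4A peaks with 200 bp windows. Spearman's rho was 0.068 for HNF4A and KLF5 by score. It was -0.063 by score and -0.022 by fold for HNF4A and MYC, and -0.014 by score and 0.11 by fold for KLF5 and MYC, and these 3 values below 0 were the alternatives in which rho changed sign.

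Shared minus private RAD21 was 2.12 points for HNF4A, 8.19 for KLF5 and 6.55 for MYC with summits within 100 bp. KLF5 gave 15.8 points with 50% covered, 9.97 at a score of at least 100 and 15.9 within the 4 tag groups, and MYC 37.2 at that score. For CTCF, summits within 100 bp gave 0.180 points for HNF4A, 2.34 for KLF5 and -0.642 for MYC. KLF5 gave 3.91 with 50% covered and 1.23 at a score of at least 100. H3 at MYC peaks was -0.231 points with 50% covered. The S-phase peak of the same factor gave 3.15 points for HNF4A and 26.7 for KLF5 with 50% covered, and 8.43, 28.1 and 1.64 points for HNF4A, KLF5 and MYC within the 4 tag groups.

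No paired analysis was possible because each factor has 1 library and no result comes from a test across samples. The motif alternatives were not run, since no hg18 genome was used here. With 9 to 14 tags in the weakest listed peaks, sites just under the threshold of a list count as absent, which limits every shared share.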

Other observations

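Chromosomes 7, 12 and 15 were grouped because their shared shares were seen to be high, so the values are a description only. They carried 15.8% of the HNF4A, 22.7% of the KLF5 and 24.4% of the MYC list. Of the HNF4A peaks there, 17.6% were shared, against 8.30% elsewhere. KLF5 had 16.7% and 12.5%, and MYC 17.6% and 10.6%. Tag medians on these chromosomes and elsewhere were 29 and 21 for HNF4A, 12 and 11 for KLF5, and 30 and 23 for MYC, and fold enrichment medians 8.3 and 8.915, 9.75 and 11.22, and 6.72 and 7.53. Of the 31 sites of all 3 factors, 2 lay on chromosome 7, 5 on chromosome 12 and 5 on chromosome 15. Chromosome 22, outside the group, was as high with few peaks: 16.1% of its 31 HNF4A, 17.1% of its 35 KLF5 and 17.9% of its 39 MYC peaks were shared. On chromosome 16, 22% of the 50 KLF5 peaks were shared. For KLF5, chromosome 7 itself had 14.9%, below chromosomes 1 (15.7%), 11 (19%) and 14 (17.9%) outside the group. Chromosome 5 was below the share of each whole list, with 2.31% of its HNF4A, 8.70% of its KLF5 and 7.22% of its MYC peaks shared. The part of the tag counts and of chromosome copy number in these shares was not tested.

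Chaining peaks with gaps of at most 1000 bp gave 5998 clusters, of which 34 held all 3 factors and 57 held 3 or more peaks. The largest count in a cluster was 5 peaks.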
